A study of Mus musculus with 6 samples.

Results

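The cytosolic ribosomal protein genes of mouse colon epithelium were taken from the deposited tables by symbol, as Rpl, Rps or Rplp followed by a number (with an optional a, x or y suffix), or Rpsa. The rule found 79 of 52550 gene identifiers, 46 of the large subunit and 33 of the small subunit. GENCODE release M21 annotates 77 of them as protein coding and Rps3a2 and Rps3a3 as processed pseudogenes, that is, intronless genomic copies of an mRNA. All 79 had at least 1 FPKM (fragments scaled to transcript length and to the library total) in at least 3 libraries, the minimum for a test, although the rule chose none of them for a measured value.

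The libraries were made from colon epithelial cells of male mice with the Apc Min/+ genotype, which carry 1 mutant copy of the tumour suppressor gene Apc in every cell and develop intestinal adenomas. Mice aged 5 to 6 weeks were gavaged every other day with 2% Tween 80 as the vehicle (control, 3 libraries) or with atorvastatin at 20 mg/kg, a statin that inhibits cholesterol synthesis (atorvastatin or treated, 3 libraries). Both groups carry the Apc mutation, and no wild-type or untreated group was analysed here. The labels number the libraries as replicates without saying that each is a separate animal, so p-values measure the spread between these libraries, which may be partly technical.

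Ribosomal proteins bind the ribosomal RNAs, mostly in equal numbers, to build the small subunit, which reads the mRNA, and the large subunit, which joins the amino acids. Their mRNAs are among the most abundant of a dividing cell, and most begin with a run of pyrimidines (a 5′ terminal oligopyrimidine, or TOP, tract) through which LARP1 and the kinase complex mTORC1 set their translation together. The colon epithelium renews itself from crypt cells that divide quickly, and loss of Apc raises WNT signalling and its target Myc, a transcription factor that drives ribosome production.

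The starts of the genes are shown first, since the tract is the feature by which these mRNAs are controlled as a group. RefSeq promoter windows (GRCm38.p6, the build that mm10 denotes) were matched to 57 of the 79 genes. A tract was scored as C followed by at least 4 bases that are C or T, on the sense strand. It began exactly at an annotated start in 13 of the 57 genes (22.8%), against 2.93% of the 8221 tested protein-coding genes with a window. Each run below, written 5′ to 3′ on the gene's strand, holds 45 bases before the annotated start and 15 from it. Capitals mark the scored tract, counted from the annotated start, or for Rpl31 from 4 bases before it. Pyrimidines directly before the capitals, and runs farther from the start, are left in lower case. Rps6 lies at chr4:86857353-86857412 on the minus strand, Rps18 at chr17:33955651-33955710 on the minus strand, Rpl28 at chr7:4792920-4792979 on the plus strand, Rpl38 at chr11:114668535-114668594 on the plus strand and Rps27 at chr3:90213634-90213693 on the minus strand. Rpl22, the member with the largest difference between the groups, is shown at the start nearest its GENCODE gene (chr4:152325681-152325740, plus strand). No tract began within 10 bases of this start, and the pyrimidine run farther upstream was not scored. At its other RefSeq start a tract of 5 bases began 10 bases before the start. Rpl31, at the exit tunnel, is shown at chr1:39367806-39367865 on the plus strand, where the tract begins 4 bases before the annotated start.
Rps6: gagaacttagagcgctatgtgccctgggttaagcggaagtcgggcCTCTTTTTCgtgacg
Rps18: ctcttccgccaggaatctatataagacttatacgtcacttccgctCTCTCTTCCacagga
Rpl28: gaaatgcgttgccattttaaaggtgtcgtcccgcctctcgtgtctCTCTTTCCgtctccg
Rpl38: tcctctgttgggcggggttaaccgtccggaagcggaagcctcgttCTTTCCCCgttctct
Rps27: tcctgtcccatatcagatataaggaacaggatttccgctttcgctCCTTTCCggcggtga
Rpl31: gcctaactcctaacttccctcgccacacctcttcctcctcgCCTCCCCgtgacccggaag
Rpl22: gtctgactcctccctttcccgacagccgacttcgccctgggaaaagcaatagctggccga

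The share of genes with a tract depends on how exactly the start is placed. Allowing the tract to begin within 10 bases of the RefSeq start gave 34 of 57 genes (59.6%), against 36.8% of tested protein-coding genes. At the first base of GENCODE coding transcripts it was found in 22 of 77 genes (28.6%), against 5.64% of 10323 tested protein-coding genes, with 10 of 46 large subunit and 12 of 31 small subunit genes. In the 300 bases of the RefSeq window, on either strand, CCGGAA (the core bound by ETS factors) was held by 56.1% of the 57 genes against 34.0% of tested protein-coding genes. GATGGC, the core of the YY1 motif, was held by 24.6% against 18.0%. GGGCGG, the core bound by SP1, was held by 61.4% against 70.0%, and TATAAA by 10.5% against 8.64%. Each motif was counted by itself, so overlapping matches count for each, and no mismatch was allowed.

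The genes share other features that the symbol rule did not use. Of the 77 protein-coding members, 30 (39.0%) have a small nucleolar RNA gene within their span on the same strand, 58 such RNAs in all, against 1.79% of 10340 tested protein-coding genes. These RNAs guide the chemical modification of ribosomal RNA and are mostly processed from introns. Rpl4 holds 5 and Rpl13a holds 4. Members lie on 19 chromosomes, with 14 on chromosome 7 and 4 on X.

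The levels differed widely between genes whose products are built into the ribosome mostly in equal numbers. FPKM divides by gene length, so levels are compared between genes on the FPKM scale throughout. Over the 77 protein-coding members the highest mean was 30.4 times the lowest, 46 members were at 100 FPKM or more and 13 were under 50 FPKM. The 10 most abundant members held 36.4% of the summed FPKM of all 79. Across the 77 genes the mean level was lower the longer the annotated exons (Spearman's rho -0.51, a description across genes, which are not independent replicates). A length enters the FPKM itself, though which length was used is not given, and all genes share the same 6 libraries.

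**Figure D1:**
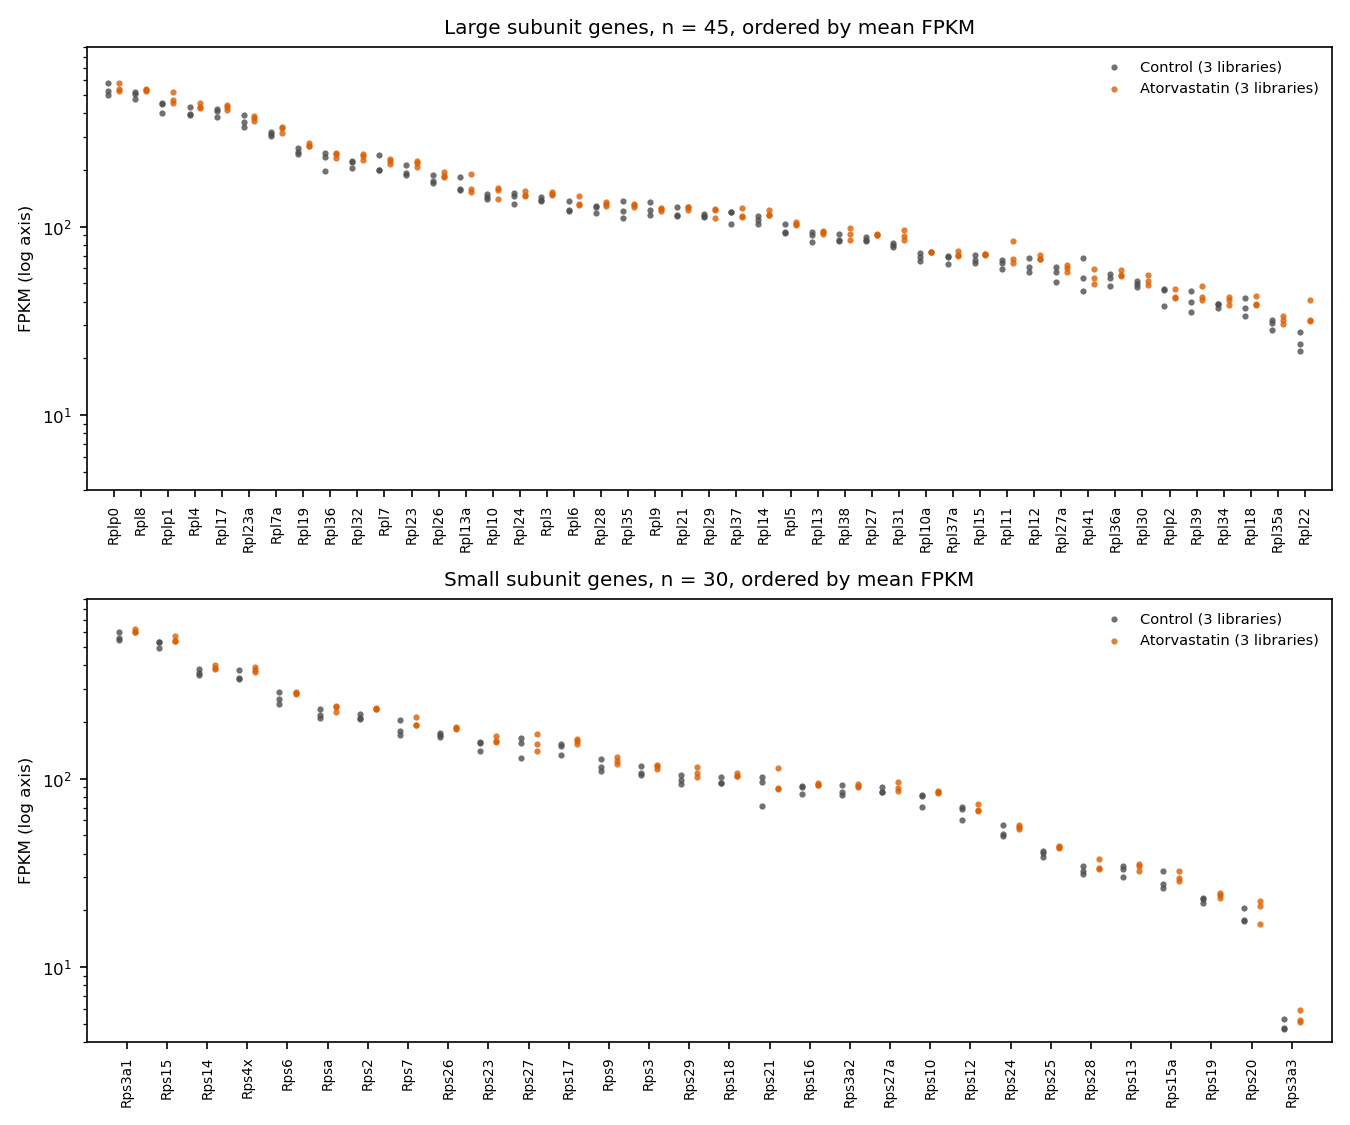
FPKM (log axis) of 75 ribosomal protein genes in the 3 control and 3 atorvastatin libraries, ordered by mean level within the large (45 genes) and the small subunit (30 genes); each point is 1 library. The 6 libraries lie close together at each gene, while the genes run from 5.16 FPKM for Rps3a3 to 589 FPKM for Rps3a1.

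Among large subunit genes the 5 highest were Rplp0, Rpl8, Rplp1, Rpl4 and Rpl17. Rplp0, the base of the acidic stalk that recruits the elongation factors, measured 524, 578 and 500.0 FPKM in control replicates 1 to 3 and 577, 529 and 542 FPKM in atorvastatin replicates 1 to 3. Rpl8, at the peptidyl transferase centre, measured 517, 509 and 477 FPKM in the controls and 537, 528 and 533 FPKM in the treated libraries. The Rplp0 groups overlapped, whereas each atorvastatin library lay above each control library for Rpl8. Rplp1, a stalk protein, measured 454, 451 and 404 FPKM in the controls and 522, 455 and 470.0 FPKM in the treated libraries. Rpl4 measured 396, 432 and 391 FPKM in the controls and 432, 428 and 456 FPKM in the treated libraries, and Rpl17 had means of 404 ± 20.5 and 430.2 ± 14.0 FPKM (SD, n = 3 each). Rpl4 and Rpl17 both line the tunnel through which the new protein leaves. Rplp0 was above Rpl8, its neighbour in level, in each of the 6 libraries, by under 1 FPKM in atorvastatin replicate 2, and it stood at 1.10 to 1.28 times Rplp1.

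The lowest large subunit genes were Rpl22, Rpl35a, Rpl18, Rpl34 and Rpl39, with means of 29.6, 31.1, 38.7, 39.4 and 41.9 FPKM over the 6 libraries. Rplp2, whose product pairs with that of Rplp1 on the stalk, was also low, at 46.5, 46.2 and 37.9 FPKM in the controls and 46.7, 42.4 and 42.1 FPKM in the treated libraries. Rplp1 was listed at 9.75 to 11.2 times Rplp2 in every library, although both proteins stand in pairs on the ribosome. The GENCODE exons of all transcripts together cover 499 bases in Rplp1 and 2072 in Rplp2. The length by which each count was divided is not given, and its part in this gap was not tested.

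Among the highest in the small subunit were Rps3a1, Rps15, Rps14 and Rps4x. Rps3a1, whose product lies on the platform of the small subunit, measured 561, 602 and 544 FPKM in the controls and 600.4, 601 and 626 FPKM in the treated libraries. Rps15, at the head of the subunit, measured 533, 534 and 493 FPKM in the controls and 575, 537 and 540.1 FPKM in the treated libraries. For Rps3a1, control replicate 2 lay above atorvastatin replicates 1 and 2, and for Rps15 the groups did not overlap. Rps14 and Rps4x had control means of 368 ± 14.4 and 354 ± 22.7 FPKM, and Rps14 was above Rps4x in each of the 6 libraries.

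The lowest small subunit genes were Rps3a3, Rps20, Rps19, Rps15a and Rps13. Rps20 measured 20.6, 17.5 and 17.9 FPKM in the controls and 16.9, 21 and 22.5 FPKM in the treated libraries. Rps19, the gene most often mutated in Diamond-Blackfan anaemia, measured 22.9, 23.3 and 22 FPKM in the controls and 24.0, 23.3 and 24.7 FPKM in the treated libraries. Both genes overlapped between the groups. Rps15a and Rps13 had means of 29.5 and 33.3 FPKM over the 6 libraries.

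The pseudogene Rps3a3 measured 5.33, 4.66 and 4.77 FPKM in the controls and 5.88, 5.08 and 5.26 FPKM in the treated libraries. Rps3a2, the other member annotated as a processed pseudogene, measured 84.8, 93.1 and 81.6 FPKM in the controls and 92.0, 90.1 and 93.7 FPKM in the treated libraries. Rps3a2 stood at 0.15 times Rps3a1 in each library.

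The same genes in the large and the small subunit were then compared within each library, as the 2 subunits are made in equal numbers. The median large subunit gene stood at 118, 118 and 110.3 FPKM in control replicates 1 to 3 and at 125, 122 and 124 FPKM in atorvastatin replicates 1 to 3. The median small subunit gene stood at 107, 117 and 104 FPKM in the controls and at 118, 113 and 117 FPKM in the treated libraries. The large subunit median was thus above the small subunit median in each of the 6 libraries, by ratios of 1.10, 1.01 and 1.06 in control and 1.06, 1.08 and 1.06 with atorvastatin. The ratio had a mean of 1.06 ± 0.05 in control and 1.07 ± 0.01 with atorvastatin (SD, n = 3 each). That difference was smaller than the spread between libraries (exact permutation test over the 6 libraries, two-sided, p = 0.7). The smallest p that 3 against 3 libraries allow is 0.1.

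Whether the large or the small subunit was higher depended on how the genes were summarised. Without Rps3a2 and Rps3a3 the ratio of medians was 1.02, 0.926 and 1.00 in control and 1.01, 1.02 and 0.951 with atorvastatin, on either side of 1. The mean FPKM per gene was 0.983 to 0.994 times as high in the large as in the small subunit. Summed over genes, the ratio was 1.37 to 1.39 in every library, with 46 genes against 33. The ratio of geometric means was 1.10 to 1.13, and its exact permutation p was 0.9. In none of these summaries did the ratio differ between the groups beyond the spread between libraries, as the smallest p among them was 0.7.

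**Figure D2:**
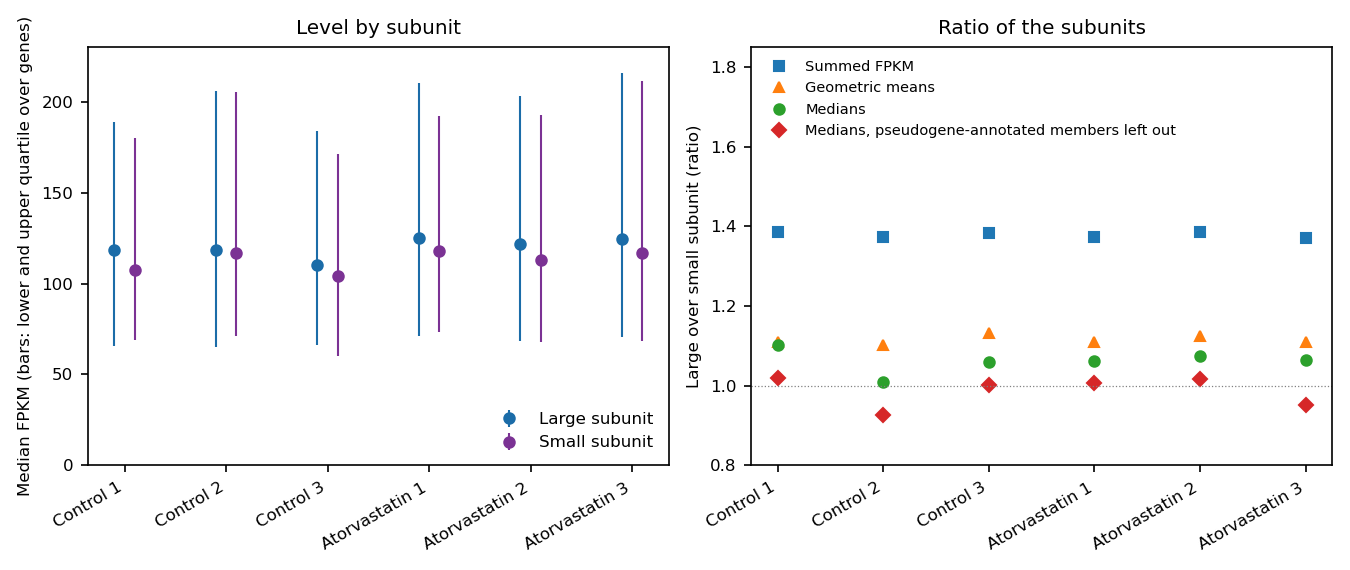
Left, median FPKM of the large and small subunit genes in each library, with bars from the lower to the upper quartile over genes; right, the ratio of large to small subunit by 4 summaries. The ratio of sums lies at 1.37 to 1.39 and the ratio of medians at 1.01 to 1.10, and leaving out the members annotated as pseudogenes brings the latter to 0.926 to 1.02.

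The effect of atorvastatin on the single genes was small, and no member passed the test. On the log2(FPKM + 1) scale, 77 of the 79 members had a positive difference (97.5%), against 57.3% of all 11644 tested genes. The members' median difference was 0.09 (range -0.03 to 0.49), beside 0.02 for all tested genes and 0.01 for the 2041 other tested genes that averaged 20 FPKM or more. The medians were 0.09 in the large subunit, where 44 of 46 were positive, and 0.10 in the small subunit, where all 33 were positive. With median-ratio scaling the members' median was 0.07 with 75 positive, and that of all genes was -0.0003. Members are not replicates of a condition, and they share the libraries, so the count of positive members carries no p.

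By limma's test with Benjamini-Hochberg adjustment over all tested genes, 0 of 79 members reached an adjusted p under 0.05, in a comparison that called 0.404% of the genes tested, and limma without the trended and robust prior also called 0. At an unadjusted p under 0.05, 6 members were higher (7.59%), near the 7.75% of all tested genes, and 0 were lower, against 4.27%. The groups did not overlap for 21 members, all higher with atorvastatin (26.6%), against 12.0% of all tested genes. The count was 55 of 79 without control replicate 2 (69.6%, all tested genes 19.1%) and 36 without atorvastatin replicate 2 (45.6%, all tested genes 15.1%). It was 21 without control replicate 3 (26.6%, all tested genes 18.8%) and 28 without control replicate 1 (35.4%, all tested genes 17.8%). Without atorvastatin replicates 1 and 3 in turn it was 25 (31.6%, all tested genes 17.3%) and 23 (29.1%, all tested genes 19.7%). No member was lower in all atorvastatin libraries, against 6.05% of all tested genes. In bulk RNA, fewer cells of a type and less RNA per cell cannot be told apart.

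The difference rested in part on 1 control library. The summed FPKM of the 79 members was 12289.6, 12838 and 11617 in control replicates 1 to 3 and 13236, 12799 and 13188 in atorvastatin replicates 1 to 3. Control replicate 3 was the lowest and control replicate 2 lay within the range of the atorvastatin libraries. The group means were 12248 ± 612 and 13074 ± 239.7 FPKM (SD, n = 3 each), 6.74% higher with atorvastatin (exact permutation test, two-sided, p = 0.2). For 63 of the 79 members control replicate 3 was the lowest of the 6 libraries, while atorvastatin replicate 1 was the highest for 35 and atorvastatin replicate 3 for 29. Without control replicate 3 the members' median difference was 0.05, with 70 of 79 positive, and without control replicate 2 it was 0.13, with 78 positive.

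**Figure D3:**
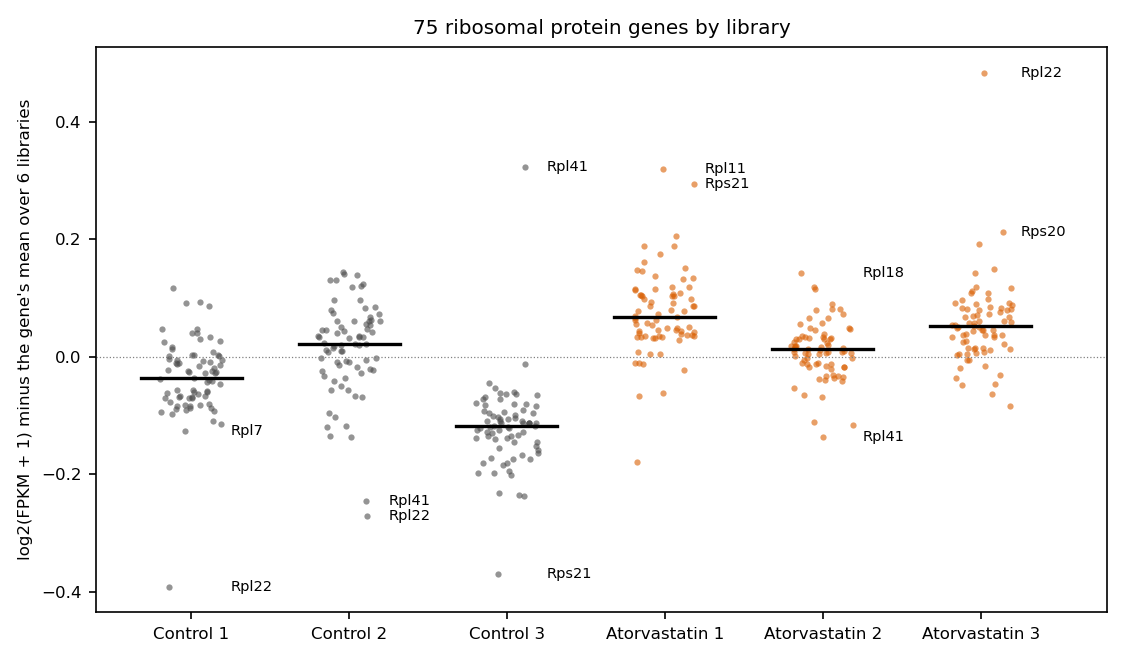
log2(FPKM + 1) of 75 of the 79 genes in each library, minus that gene's mean over the 6 libraries; points are genes, the black line is the median over all 79 genes and the 2 farthest genes of each library are named. The medians are -0.04, 0.02 and -0.12 in control replicates 1 to 3 and 0.07, 0.01 and 0.05 in atorvastatin replicates 1 to 3, with Rpl41 above the others in control replicate 3 and Rpl22 in atorvastatin replicate 3.

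The ribosomal protein genes took 2.99%, 3.06% and 2.75% of the summed FPKM in the controls and 3.15%, 3.14% and 3.06% with atorvastatin. Mitochondrially encoded transcripts took 30.3% to 33.2%. With those left out of the total, the members' share was 4.31%, 4.50% and 4.08% in control and 4.62%, 4.50% and 4.58% with atorvastatin. The groups no longer overlapped (exact permutation test, two-sided, p = 0.1, the smallest possible), but only narrowly, at 4.500% in control replicate 2 and 4.504% in atorvastatin replicate 2. The large subunit sum was 6.60% higher with atorvastatin and did not overlap (exact permutation p = 0.1). That too was a near tie, at 7428 FPKM in control replicate 2 and 7434 FPKM in atorvastatin replicate 2. The small subunit sum was 6.93% higher and overlapped (exact permutation p = 0.2).

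Markers of immune cells and of the RNA preparation averaged lower with atorvastatin. Epithelial markers summed to 9819 to 10805 FPKM in the controls and 9431 to 10823 FPKM in the treated libraries. The 12 stromal, endothelial and muscle markers summed to 1.75 to 3.38 and 2.06 to 2.48 FPKM, and both of these lists overlapped between the groups. All 10 tested of 15 T and NK cell markers had negative differences, and their list summed to 22.8 to 41.6 FPKM in the controls and 16.6 to 23.5 FPKM in the treated libraries. The 8 B and plasma cell markers summed to 5.13 to 11.5 and 2.58 to 3.35 FPKM, and the 11 macrophage, dendritic and mast cell markers to 17.3 to 34.5 and 11.6 to 13.1 FPKM. No marker on these lists was at 0 in every library. The mitochondrial ribosomal RNAs mt-Rnr1 and mt-Rnr2 summed to 3906 to 5168 FPKM in the controls and 2454 to 3248 FPKM in the treated libraries. The part of these shifts in the ribosomal protein values was not tested.

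Rpl22 had the largest difference. It encodes a large subunit protein at the rim of the exit tunnel that is dispensable for translation in most cells and also binds other RNAs, among them the mRNA of its paralog Rpl22l1. The gene (ENSMUSG00000028936) lies on GRCm38 chromosome 4, 152325742 to 152334071, on the plus strand, with 2911 exonic bases. Rpl22 measured 21.8, 23.8 and 27.5 FPKM in the controls and 31.9, 31.4 and 40.9 FPKM in the treated libraries. All 3 atorvastatin libraries lay above all 3 control libraries, with atorvastatin replicate 3 the highest. The log2 difference was 0.49 ± 0.12 (SE, 95% interval 0.20 to 0.78), and limma's p was 0.00509 before and 0.181 after adjustment, so Rpl22 did not pass. Its adjusted p lay between 0.128 and 0.471 over the alternatives, and its difference between 0.37 and 0.58. Of its coding 50-base windows, 31% occur in another gene.

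Rpl22l1, which replaces Rpl22 in the ribosome when Rpl22 is missing, measured 15.1, 15.7 and 15 FPKM in the controls and 17.6, 16.1 and 16.9 FPKM in the treated libraries. The groups did not overlap, and the log2 difference was 0.14 ± 0.05 (limma adjusted p = 0.362). Both genes of the pair were therefore listed higher with atorvastatin, and neither passed the test.

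Rpl31, at the exit tunnel's rim, measured 79.8, 78.1 and 82.2 FPKM in the controls and 95.9, 89.8 and 84.5 FPKM in the treated libraries, with no overlap and a log2 difference of 0.17 ± 0.06 (limma adjusted p = 0.343). Other members with an unadjusted p under 0.05 were Rps2, which lies at the mRNA entry channel, at 0.15 ± 0.05 (limma adjusted p = 0.302), and Rps26, which contacts the mRNA before the start codon, at 0.13 ± 0.05 (limma adjusted p = 0.366). Rps2 measured 220.5, 209.6 and 208 FPKM in the controls and 234, 238 and 236 FPKM in the treated libraries.

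Rpl11 and Rpl5 form with 5S RNA the particle that binds Mdm2 and stabilises p53 when ribosome assembly fails. Rpl11 measured 64.1, 66.9 and 59.9 FPKM in the controls and 84.3, 64.2 and 67.1 FPKM in the treated libraries. Only atorvastatin replicate 1 stood apart, and the log2 difference was 0.16 ± 0.11 (limma adjusted p = 0.616). Rpl5 measured 92.6, 104 and 93.3 FPKM in the controls and 103, 102 and 106 FPKM in the treated libraries, overlapping at control replicate 2 (0.11 ± 0.06, limma adjusted p = 0.557).

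The only members with a negative difference were Rpl41, the smallest ribosomal protein, and Rpl9. Rpl41 measured 53.4, 45.8 and 68.4 FPKM in the controls and 59.3, 49.5 and 53.3 FPKM in the treated libraries, so that control replicate 3, the lowest library for most members, was the highest here. Its log2 difference was -0.03 ± 0.14 (limma adjusted p = 0.954), and it was 0.12 without control replicate 3. Rpl9 measured 123, 136 and 116 FPKM in the controls and 125, 120.5 and 125 FPKM in the treated libraries (-0.01 ± 0.07, limma adjusted p = 0.964). Its sign also turned, to 0.05, without control replicate 2. Rpl13a, Rplp2 and Rplp0 followed at 0.01 ± 0.10, 0.01 ± 0.09 and 0.04 ± 0.07, and each was below 0 without control replicate 3, at -0.02, -0.08 and -0.005.

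**Figure D4:**
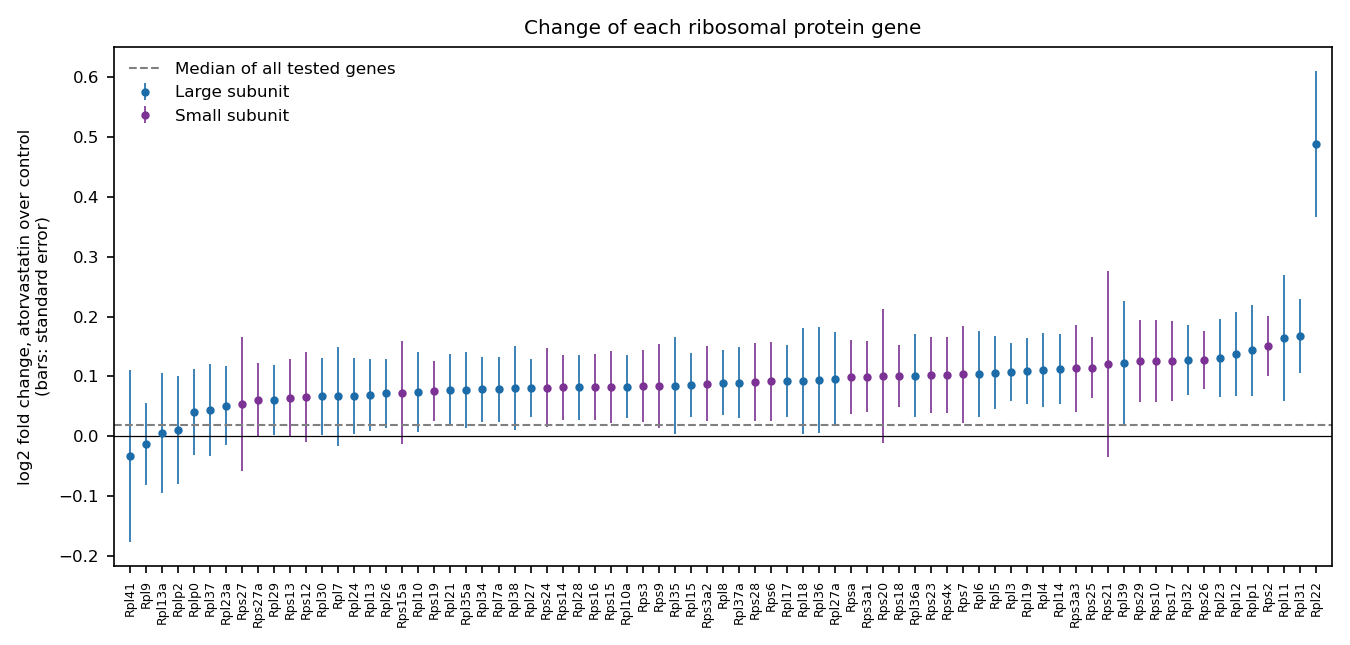
log2 difference in FPKM + 1, atorvastatin over control, for 75 of the 79 genes, with bars of 1 standard error, ordered by size and coloured by subunit; the dashed line is the median of all tested genes (0.02). All but Rpl41 and Rpl9 lie above 0, most between 0.05 and 0.15, and Rpl22 at 0.49 stands apart.

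The spread within a group was smaller than these outlying genes might imply. The pooled SD on the log2 scale had a median of 0.075 over the members, and 61 of 79 were under 0.1. The median was 0.091 over all tested genes and 0.084 over the other tested genes that averaged 20 FPKM or more. Among the most variable were Rps21 (0.24), Rpl41 (0.22) and Rpl22 (0.19). Rps21, a small protein of the small subunit, measured 95.8, 102 and 71.5 FPKM in the controls and 114, 88.5 and 89.7 FPKM in the treated libraries, with control replicate 3 low and atorvastatin replicate 1 high. Its difference was 0.12 ± 0.16 (limma adjusted p = 0.827), and -0.03 without control replicate 3.

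By role, the median differences lay between 0.04 and 0.14. The 9 genes of the exit tunnel and its rim had a median log2 difference of 0.11, the 14 genes of the small subunit head 0.10 and the 15 genes mutated in Diamond-Blackfan anaemia 0.09. All members of these lists were positive and 0 passed limma's adjusted test. The 3 stalk genes had a median of 0.04, Rpl5 and Rpl11 0.14 and the 4 X-linked genes 0.10. Of the X-linked genes, Rps4x measured 343, 379.8 and 338 FPKM in the controls and 377, 370.1 and 391 FPKM in the treated libraries. Rpl10, the last protein to join the large subunit, measured 148, 144 and 140.2 FPKM in the controls and 160.3, 157 and 139.6 FPKM in the treated libraries. Rpl36a and Rpl39 had means of 54.5 and 41.9 FPKM over the 6 libraries. The groups overlapped for all 4.

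Members with known roles outside the ribosome did not pass the test either. Rps6, the substrate of S6 kinase downstream of mTORC1, measured 265, 289.6 and 249.7 FPKM in the controls and 285, 281 and 290.1 FPKM in the treated libraries (0.09 ± 0.07, limma adjusted p = 0.662). Rpsa, also known as a laminin receptor, measured 218, 235 and 211 FPKM in the controls and 240.2, 227 and 244 FPKM in the treated libraries (0.10 ± 0.06, limma adjusted p = 0.607). For both, control replicate 2 reached the atorvastatin range. Rps3, which also takes part in DNA repair, measured 107, 117 and 104 FPKM in the controls and 118, 113 and 117 FPKM in the treated libraries. Rps27a, made as a fusion with ubiquitin, measured 84.8, 90.6 and 84.7 FPKM in the controls and 96.0, 86.1 and 89.5 FPKM in the treated libraries, and both genes overlapped between the groups.

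Members with and without these sequence features had like medians. The 22 genes with a tract at a GENCODE start had a median log2 difference of 0.09 and so had the 55 without. The 30 genes that hold a small nucleolar RNA had a median of 0.09, as did the 47 that hold none. These medians describe the genes and carry no test.

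Pseudogenes may share reads with the members, because processed copies of ribosomal protein mRNAs are numerous in the mouse genome and retain nearly the same sequence. Of the rows in the tables, 291 are named as Rpl or Rps pseudogenes, 77 of them with 1 FPKM or more on average and 97 at 0 in every library. BLAST 2.17.0 was used to search the members' coding sequences against transcripts of GENCODE pseudogenes and of the rows so named. Some of the named rows, such as Rpl9-ps6, are annotated as protein coding. With at least 80% of the coding sequence at 90% identity or more, 872 rows matched 72 of the 77 protein-coding members. Of these, 175 averaged 1 FPKM or more and 86 averaged 10 FPKM or more. Rpl21 had the most copies, 74, followed by Rpl7a with 59.

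The rows of the copies were also listed at high values, and how much of this came from reads of the members was not tested. The matched pseudogenes summed to 4912 FPKM beside 12661 FPKM for the members, on the mean of the 6 libraries, and to 38.2% to 39.3% of the members' sum in each library. For 14 members the copies together exceeded the gene itself. Rpl31-ps8, identical to the coding sequence of Rpl31, measured 253, 257 and 265 FPKM in the controls and 284, 276 and 287 FPKM in the treated libraries, 2.96 to 3.40 times Rpl31. The other named pseudogenes with the highest means were Rps6-ps4 at 193 FPKM, Rps23-ps1 at 134, Rpl28-ps1 at 103 and Rps27a-ps2 at 102. Over the 6 libraries the ratio to the parent gene ran from 0.656 to 0.736 for Rps6-ps4 and from 0.835 to 0.882 for Rps23-ps1. It ran from 0.757 to 0.859 for Rpl28-ps1 and from 1.05 to 1.22 for Rps27a-ps2.

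**Figure D5:**
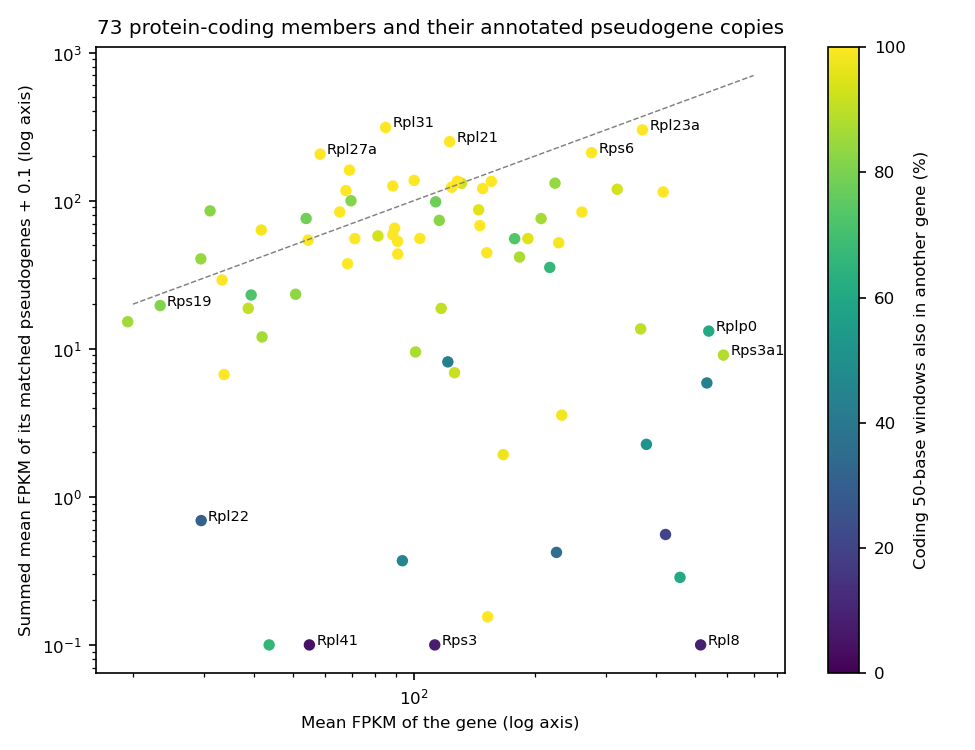
Mean FPKM of 73 of the 77 protein-coding members (horizontal, log axis) and the summed mean FPKM of their sequence-matched pseudogenes plus 0.1 (vertical, log axis), coloured by the share of their coding 50-base windows found in another gene; the dashed line marks equality. The 14 genes above the line include Rpl31, Rpl27a and Rpl21, while Rpl8, Rps3 and Rpl41 have no matched copy and share under 10% of their windows.

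The overlap in sequence was measured in windows of 50 bases. A median of 91.6% of a member's coding windows occurred in another gene's transcript, 57 of the 77 members shared at least 80% and 28 shared all. Only 4 shared under 10%, among them Rpl41 (4.49%), Rps3 (8.09%) and Rpl8 (8.73%). A read from a shared window cannot be assigned to the gene or to its copies from its sequence alone, and the sources used here do not give how the authors counted such reads. Of the members with little shared sequence, the log2 difference was 0.09 for Rpl8, 0.08 for Rps3 and -0.03 for Rpl41. Across the 77 genes the difference had a Spearman's rho of -0.05 with the shared percentage, as a description across genes.

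The matched pseudogenes were also mostly positive. Of 177 tested matched rows, 162 had a positive difference, against 57.3% of all tested genes, with a median of 0.10. None passed limma's adjusted test, and 21 had an unadjusted p under 0.05. At that threshold 7.75% of all tested genes were higher and 4.27% lower. With the matched copies added to their parent genes, the members' median was 0.10, 78 of 79 were positive and 0 passed. The subunit comparison moved more. The ratio of the large to the small subunit median was 1.44 with all sequence-matched copies added and 0.980 with the named copies added, against 1.06 without.

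Ribosomal protein genes outside the symbol rule were read beside the members. Fau, which encodes a ribosomal protein fused to a ubiquitin-like protein, had a log2 difference of -0.05, and Rack1, a scaffold on the small subunit head, -0.03. Their FPKM overlapped between the groups, with means over control of 111 and 84.4. Rps27l, Rpl36al and Rpl7l1 were expressed at control means of 41.5, 54.1 and 22.1 FPKM, with differences of 0.09, 0.03 and 0.08. The paralogs Rpl10l, Rpl3l and Rpl39l are known from testis or muscle. Rpl10l was listed at 0 in every library, and Rpl3l and Rpl39l at no more than 0.033 FPKM. Of the 9 of 12 such genes tested, 7 were positive, with a median of 0.07, and 0 passed.

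Other genes of translation were followed on lists. Of 21 elongation factors and other TOP mRNAs, 18 were positive, with a median log2 difference of 0.05. Nap1l1, a histone chaperone gene with a TOP tract, had the largest, at 10.7, 13.3 and 11.2 FPKM in the controls and 15.5, 15.6 and 15.6 FPKM in the treated libraries (0.39 ± 0.08, limma adjusted p = 0.11). The groups did not overlap, and without control replicate 2 Nap1l1 passed the test (0.47, limma adjusted p = 0.0394). Hnrnpa1, a splicing factor gene, followed at 0.20 ± 0.05 (limma adjusted p = 0.186). Eef1a1, the main elongation factor, measured 1766, 1890.0 and 1751 FPKM in the controls and 1937, 1899.8 and 1950.5 FPKM in the treated libraries, with no overlap (0.10 ± 0.06, limma adjusted p = 0.556). Eef1b2, Eef2, Tpt1 and Pabpc1 had differences of 0.13, 0.03, 0.03 and 0.05.

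Genes that make or control ribosomes lay closer to the median of all genes. The median was 0.04 over 28 initiation factors (21 positive), 0.01 over 18 genes of RNA polymerase I and ribosomal RNA synthesis (12 positive), 0.03 over 52 tested assembly factors (33 positive) and 0.02 over 18 genes of mTORC1, MYC and LARP1 control (10 positive). None of these genes passed limma's adjusted test. At an unadjusted p under 0.05, 5 were higher, namely 1 of 28, 1 of 18, 2 of 52 and 1 of 18 in the order given. None was lower, and over all tested genes 7.75% were higher and 4.27% lower. The smallest p-values belonged to Eif1ax (0.22 ± 0.06, limma adjusted p = 0.181), Ncl (0.20 ± 0.06, limma adjusted p = 0.230) and Nhp2 (0.21 ± 0.05, limma adjusted p = 0.153). Npm1, Fbl, Myc and Larp1 had differences of 0.15, 0.10, 0.10 and 0.01. Myc measured 5.19, 5.57 and 6.71 FPKM in the controls and 6.35, 5.74 and 6.85 FPKM in the treated libraries, and the groups overlapped.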

How the data were processed

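RNA from colon epithelial cells of 3 control and 3 atorvastatin libraries was analysed from the deposited tables, which hold 1 FPKM value per gene and library. The unit was read from the values, and the submitters' processing notes name FastQC 0.11.2, Bowtie and mm10. The quantifier, annotation, strand setting and handling of reads that map to several genes are not given in the sources used here. FPKM carry no read totals, so depth is unknown and no counting interval is given, and the total (407857 to 430832 FPKM per library) scales every gene.

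A gene table named 99.7% of 52550 identifiers. The 11644 genes that reached 1 FPKM in 3 or more libraries were compared with limma 3.58.1 in R 4.3.3 on log2(FPKM + 1), with a trended, robust prior, two-sided, and Benjamini-Hochberg adjustment over all tested genes at 0.05. This scale understates differences of low genes. The fit was tested on simulated data. ± is the SE of a difference and the SD of a level. Library summaries were compared by exact permutation (SciPy 1.17.1).

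The members and lists were chosen with earlier results of these data known. Genes named are members past the test, the 5 highest and 5 lowest of each subunit, the 5 largest differences each way, fixed members, paralogs and factors, and the 5 highest named pseudogenes. Rps2, Rps26, Rps21, Rpl21, Rpl7a and the genes with printed starts were singled out after their values were seen. Coordinates are from GENCODE M21 on GRCm38. Alternatives covered pseudocount, filter, scaling, prior, pseudogenes, replicate block and each library left out. Some genes that the rule selects are not reported here or drawn in the figures.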

Additional observations from a re-analysis of the deposited data

How the results depend on the processing

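No member passed limma's adjusted test under any alternative (smallest adjusted p 0.128), and the members' median log2 difference stayed positive, from 0.05 to 0.13. Adding sequence-matched pseudogenes and leaving out Rps3a2 and Rps3a3 were alternatives chosen after seeing the data. Over all genes, 47 passed, against 2 with no filter on low values and 2 to 67 with 1 library left out. On the translation lists 0 passed, and 0 to 1 with 1 library left out. The ratio of subunit medians, 1.06, was 1.38 for sums, 1.11 for geometric means, 1.44 with sequence-matched and 0.980 with named pseudogenes added, and 0.987 without Rps3a2 and Rps3a3; the cause was not tested. Same-numbered control and atorvastatin libraries did not deviate together (correlations -0.14, -0.11 and 0.01), and not every library correlated best with its own number. With the replicate number as a block, 1 gene passed over all genes and 0 members did, with Rpl22 at an adjusted p of 0.149.

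Of 792 refits of 44 named genes, 18 turned sign, in genes with a difference within 0.05 of 0 and in Rps21, at 0.12. Rpl13a was at -0.016 and Rplp2 at -0.011 with median-ratio scaling, and at -0.013 and -0.0074 with abundant genes left out of the total. Rpl13a was at -0.023 with quantile normalization. Rpl9 was at 0.0091 with named and 0.0081 with sequence-matched pseudogenes added. With 1 library left out, Rpl13a ran from -0.089 to 0.076, Rplp2 from -0.084 to 0.060, Rpl9 from -0.064 to 0.050, Rpl41 from -0.16 to 0.12, Rps21 from -0.034 to 0.22 and Rplp0 from -0.0046 to 0.10. Nap1l1 alone passed in a refit.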
